A study of Mus musculus with 10 samples.

Results

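Adult mouse ileum in which both Oct4 and Sox2 had been switched on was compared with ileum in which Sox2 alone had been switched on. The comparison holds 4 of the 10 arrays of the series, 2 for each group, and was chosen by genotype and treatment only. TetON-Oct4 X TetON-Sox2 animals given doxycycline (DOX) are called Sox2xOct4 +DOX here, and TetON-Sox2 animals given DOX are called Sox2 +DOX. In TetON animals the regulator rtTA switches a transgene on when DOX is present. The other groups, with 2 arrays each, were TetON-Sox2 animals left without DOX (Sox2 -DOX), rtTA controls without the Sox2 transgene given DOX (rtTA +DOX) and TetON-Oct4 animals given DOX (Oct4 +DOX). All were C57BL/6 mice of 6 to 8 weeks. Treated mice drank water with DOX at 2 mg/ml and 1% sucrose over 2 days. The labels do not name the promoter behind rtTA, and the ileum was chopped whole, so that epithelium, muscle and immune cells were measured together. A lower level can then come from fewer cells of a type or from less RNA per cell, which cannot be told apart. The labels number the replicates without saying that they are separate animals, so the p-values measure the spread between these samples, which may be technical.

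Oct4 (gene symbol Pou5f1) is a POU-domain transcription factor of the early embryo that binds the octamer DNA motif. Sox2 is an HMG-box transcription factor. In pluripotent stem cells both bind side by side at many genes, together with Nanog, and hold the undifferentiated state. The adult intestinal epithelium uses neither of them. Sox2 is a factor of foregut and stomach epithelium, whereas the intestine relies on Cdx2.

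Levels are given as log2 of the probe's processed signal minus the array's 75th percentile, so 0 is the level of a fairly bright probe of that array. A gene was called at an adjusted p under 0.05 in limma, fitted over all 10 arrays and 19056 genes with Benjamini-Hochberg adjustment, and every adjusted p below is from that fit. A value from an array where the probe was not well above background has no order, and a fold against such a group is given as "at least", counted from the lowest signal well above background.

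The 2 groups lay on different slides. Slide 1 held both TetON-Sox2 groups, slide 2 held rtTA +DOX and Sox2xOct4 +DOX, and slide 3 held Oct4 +DOX. Sex-linked transcripts also separated them. Xist, the RNA that coats the inactive X chromosome, stood at -7.41 and -6.01 in Sox2 +DOX and at 2.98 and 3.89 in Sox2xOct4 +DOX, and the Y-linked Eif2s3y at 1.61 and 2.06 and at -9.0 and -8.01. The rtTA +DOX arrays looked like Sox2xOct4 +DOX in both genes, the Sox2 -DOX arrays like Sox2 +DOX, and the 2 Oct4 +DOX arrays differed from each other. Added Oct4, slide and the state of these sex-linked genes therefore cannot be told apart in the main comparison alone. Oct4 +DOX was the only group on slide 3, so Oct4 and slide cannot be told apart in its comparison with rtTA +DOX either. On the X chromosome 2.55% of genes tested were called, and 2.6% on the autosomes. Xist and Eif2s3y were not called themselves (adjusted p = 0.067 each), nor was any of 8 tested Y genes. The shared spread takes in the 2 Oct4 +DOX arrays, which differed in both genes, and gave standard errors of 2.36 and 2.4. Genes that follow the sex-linked state were thus hard to call, and these shares do not measure its effect. Of the genes named below, Nr0b1, Slc7a3, Rgn, Nsdhl and Pcyt1b have their probes on the X chromosome. An effect of the sex-linked state on these genes was not tested. As a slide-matched value, the difference between rtTA +DOX and Sox2 -DOX, which crosses the same 2 slides without Oct4 or Sox2, was subtracted. It is called the slide-matched change below. Those 2 groups also differ in genotype and in DOX, so the subtraction brings in any effect of either, and it has a larger error than the plain comparison.

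Sox2 itself could not be read on this platform. None of the 10 arrays showed its probe well above background, with levels of -8.28 and -8.18 in Sox2 +DOX and -8.88 and -7.83 in Sox2xOct4 +DOX, and whether that probe sees the transgene's RNA was not tested. Sox21, a relative of Sox2, was high in both groups with the Sox2 transgene on, at 3.33 and 1.4 in Sox2 +DOX and at 0.98 and 0.44 in Sox2xOct4 +DOX, against -4.92 to -3.28 on the other 6 arrays. Its change between the 2 groups was -1.65 with a standard error of 0.66 and did not pass the test (adjusted p = 0.21). The intestinal factor Cdx2 changed by -0.49 with a standard error of 0.49 (adjusted p = 0.62). Markers of the tissue were present in every array. Vil1, a brush border protein, lay between 6.59 and 7.84, Fabp6, the ileal bile acid binding protein, between 1.03 and 3.74, and Slc10a2, the ileal bile acid transporter, between -0.11 and 5.71, with its lowest level in Sox2xOct4 +DOX replicate 1.

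With Oct4 added, 335 genes were higher (1.76% of those tested) and 160 lower (0.84%). These shares are the background for each list count below, and 1 or 2 calls in a list are not read as a result about it. With normexp background correction and quantile normalization the split was 306 higher of 582. Of the 495, 258 were over 4-fold higher and 90 over 4-fold lower. In all 495 called genes (2.6%) the 2 groups did not overlap, which was also true of 46.6% of all genes tested. The median change over all genes was 0.1. Among the 335 higher genes, 109 were not well above background on both Sox2 +DOX arrays, and among the 160 lower genes 24 were not well above background on both Sox2xOct4 +DOX arrays. The count rests on single arrays: leaving out Sox2 +DOX replicate 1 gave 81 genes, leaving out its replicate 2 gave 219, and leaving out Sox2xOct4 +DOX replicate 2 gave 197. It was 52 when the 4 arrays were fitted alone. Of the 495, 61 were called in each of the 4 fits that left out 1 of these arrays.

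Set beside all 5 groups, the higher genes were of 2 overlapping kinds. In 217 of the 335 (64.8%), both Sox2xOct4 +DOX arrays lay above the other 8 arrays, and in 161 (48.1%) both Sox2 +DOX arrays lay below the other 8. Over all genes tested these shares were 7.43% and 8.53%. Among the 160 lower genes, both Sox2xOct4 +DOX arrays lay below the other 8 in 52 (32.5%) and both Sox2 +DOX arrays lay above the other 8 in 113 (70.6%), against 5.51% and 6.63% of all genes. Most falls were thus in genes at their highest with Sox2 alone. A call itself asks for a gap between the 2 groups compared, which raises all of these shares. Their excess over all genes is therefore no separate result.

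Pou5f1 was measured by 1 probe, shown here because it checks the Oct4 transgene. It lies at chr17:35118388-35118448 of mouse build NCBI36/mm8 per the file headers, and the letters are as deposited.
Pou5f1 probe: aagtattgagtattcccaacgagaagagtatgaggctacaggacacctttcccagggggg

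Pou5f1 stood at -8.52 and -8.51 in Sox2 +DOX, not well above background, and at 2.64 and 0.92 in Sox2xOct4 +DOX. The rise was 10.29 with a standard error of 0.62 (adjusted p = 0.00057), at least 280-fold. Oct4 +DOX was higher still, at 6.2 and 4.79, while Sox2 -DOX and rtTA +DOX stayed between -9.28 and -7.97 and below background. The difference between the rise with Sox2 and the rise without Sox2 did not pass the test (adjusted p = 0.064).

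Few of the other genes of the pluripotent network followed. Of 40 genes listed for pluripotency and the early embryo, 25 were tested and 3 rose, Pou5f1 included, none fell, and the median change was 0.37. Nr0b1 (Dax1), an orphan nuclear receptor that is highly expressed in embryonic stem cells, stood at -8.37 and -8.27 in Sox2 +DOX and at -1.81 and -1.47 in Sox2xOct4 +DOX. It rose by 6.68 with a standard error of 0.36 (adjusted p = 0.00031), at least 26.2-fold. The Sox2xOct4 +DOX arrays were the only ones of the 10 in which Nr0b1 was well above background, and with Oct4 alone it was at -8.18 and -7.45. The difference between the response to Oct4 with Sox2 and without Sox2 was called for Nr0b1 (adjusted p = 0.0073). Its slide-matched change was 7.44 (adjusted p = 0.0025).

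Fbxo15, an F-box gene long used as a reporter of embryonic stem cells, rose from -5.59 and -8.38 to -2.96 and -2.15, by 4.43 with a standard error of 0.85 (adjusted p = 0.036). The call of Fbxo15 did not survive the loss of Sox2 +DOX replicate 2 (adjusted p = 0.073), Sox2xOct4 +DOX replicate 1 (0.056) or replicate 2 (0.13). Slc7a3, a transporter of arginine and lysine, rose from -2.7 and -2.61 to 3.27 and 3.04, which is 56.0-fold (change 5.81, standard error 0.41, adjusted p = 0.0011). It lay between -4.48 and -2.53 in the 3 groups outside the comparison, and the response to Oct4 differed with Sox2 (adjusted p = 0.015). Boll, a germ cell RNA-binding protein, rose by 4.53 with a standard error of 0.39 (adjusted p = 0.0021), from -5.77 and -6.28 to -1.71 and -1.29. No array showed Nanog well above background, at -7.94 and -8.49 in Sox2 +DOX and -9.15 and -8.11 in Sox2xOct4 +DOX. None of 12 tested genes of trophectoderm, germ cells and early lineages was called, and their median change was 0.33. Of the 9 POU genes tested, Pou6f1 also rose, from -3.24 and -3.1 to -0.48 and -0.96 (change 2.45, adjusted p = 0.02), and Sox4 was the 1 gene called among 15 tested SOX genes, at 1.41 (adjusted p = 0.04). Both calls were lost without Sox2 +DOX replicate 1 or 2, and that of Sox4 also without either Sox2xOct4 +DOX array.

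**Figure D1:**
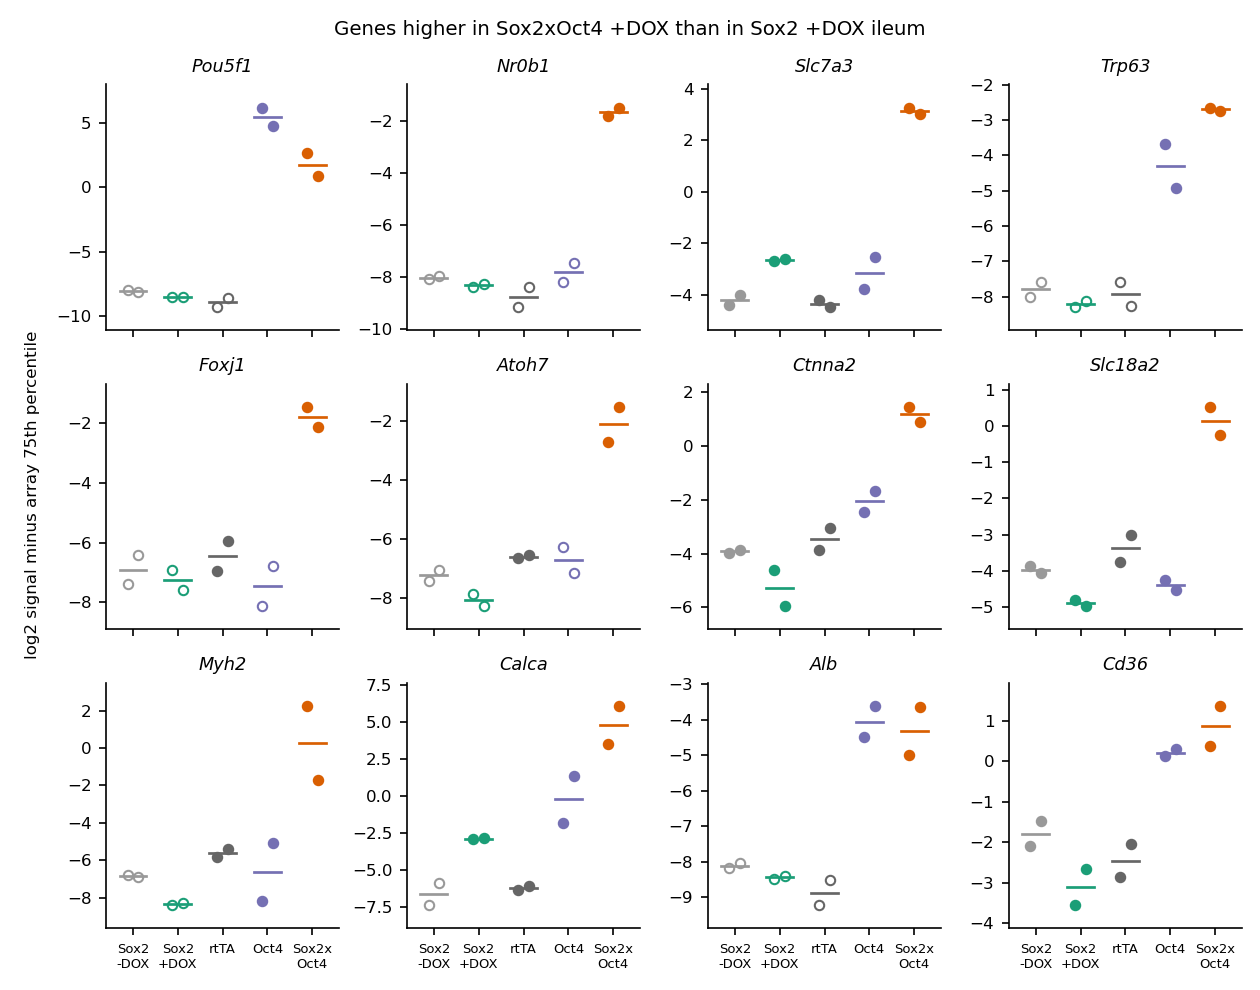
Level (log2 signal minus the array's 75th percentile, vertical axis) of 12 genes that rose with added Oct4, in the 5 groups. Each point is 1 array and each line the mean of 2, open points mark groups with no array well above background, and the vertical scales differ. Nr0b1, Foxj1 and Slc18a2 are high in Sox2xOct4 +DOX alone, while Pou5f1, Trp63, Alb and Cd36 are also raised in Oct4 +DOX.

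Trp63 (p63), the master transcription factor of basal cells in stratified epithelia, rose in both settings with Oct4. It was below background at -8.29 and -8.13 in Sox2 +DOX and stood at -2.65 and -2.75 in Sox2xOct4 +DOX, a rise of 5.51 with a standard error of 0.44 (adjusted p = 0.0018), at least 12.6-fold. In Oct4 +DOX it stood at -3.67 and -4.93, a rise of 3.62 over rtTA +DOX (adjusted p = 0.01), and its slide-matched change was 5.64 (adjusted p = 0.023). Of 37 squamous epithelium genes, 29 were tested and 2 rose, Trp63 and Dsg3, a desmosomal cadherin of the epidermis, with a median of -0.24. Dsg3 rose by 2.92 (adjusted p = 0.028), from -5.35 and -4.72 to -1.88 and -2.37. Its call was lost in each of the 4 fits without 1 array (adjusted p = 0.061 to 0.15) and its 2 probes differed in direction. Krt6a, a keratin of activated squamous epithelium, stood at 3.07 and 2.1 with Sox2 alone, at -1.82 and -1.51 with Oct4 alone and at 0.51 and -2.63 with both (change from Sox2 alone -3.65, adjusted p = 0.084). Stx19, an epithelial syntaxin, rose by 3.53 with Sox2 on (adjusted p = 0.0049) and by 5.59 with Oct4 alone (adjusted p = 0.00067).

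Genes called in the same direction with Oct4 in both backgrounds were a minority of either set. In Oct4 +DOX against rtTA +DOX, 138 genes were higher (0.724% of those tested) and 54 lower (0.283%). These groups share no array with the main comparison. They lay on slides 3 and 2, and slide 3 held no control group, so no slide-matched value can be given for Oct4 alone. The count of 192 (1.01%) was 97 without Oct4 +DOX replicate 2, 35 without rtTA +DOX replicate 1 and 49 without its replicate 2, and single genes were called on all arrays only. The 28 genes higher in both were 8.36% of the 335, against 0.724% of all genes, and 20.3% of the 138, against 1.76%. The 5 lower in both were 3.12% of the 160, against 0.283%, and 9.26% of the 54, against 0.84%. A further 12 genes were called in both in opposite directions, 5 of them higher with Sox2 on and 7 lower. Across all genes the changes correlated with r = -0.004, a description over genes that share their arrays and are not independent. Slide 2 enters the 2 comparisons with opposite signs, so an effect of that slide would lower this r.

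Among the 28 were genes of unlike function. Alb, serum albumin, rose from below background (-8.47 and -8.41) to -4.99 and -3.63 with Sox2 on (change 4.14, adjusted p = 0.0077) and by 4.81 with Oct4 alone (adjusted p = 0.0048). For Alb with Sox2 on, the fold has only a lower bound, which is 4.12. The log2 change of Alb there was 0.54 with normexp and quantile normalization and not called (adjusted p = 0.11). With signals raised to the array's lowest signal well above background it was 2.04, again not called (adjusted p = 0.066). Cd36, a fatty acid transporter, rose from -3.55 and -2.66 to 0.37 and 1.37, which is 15.7-fold (change 3.98, standard error 0.48, adjusted p = 0.0077), and by 2.67 with Oct4 alone (adjusted p = 0.047). Slc19a3, a thiamine transporter, rose by 2.77 with Sox2 on (adjusted p = 0.003) and by 5.3 with Oct4 alone (adjusted p = 0.0001), and the difference of these responses was called (adjusted p = 0.023). Lrrn3, a neuronal leucine-rich repeat protein, rose by 2.89 and by 4.55 (adjusted p = 0.0049 and 0.00067). Shisal2b rose by 4.73 and 5.0 (adjusted p = 0.008 and 0.0079), and BC019122, an uncharacterised transcript, by 6.83 and 6.34 (adjusted p = 0.021 and 0.039). Alb, Cd36, Shisal2b and BC019122 lost their call in the main comparison without Sox2 +DOX replicate 1 (adjusted p between 0.05 and 0.15), and BC019122 also without Sox2 +DOX replicate 2 or Sox2xOct4 +DOX replicate 2.

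The olfactory receptor genes Olfr713, Olfr714 and Olfr711, whose probes lie on chromosome 7, rose in both as well. Olfr713 stood at -8.64 and -8.38 in Sox2 +DOX, at -2.01 and -1.7 in Sox2xOct4 +DOX and at -3.1 and -3.93 in Oct4 +DOX, and its rise of 6.66 (standard error 0.35, adjusted p = 0.00031) was at least 22.6-fold. Olfr714 rose by 3.96 (adjusted p = 0.0063) and Olfr711 by 3.23 (adjusted p = 0.014), and both lost the call without Sox2 +DOX replicate 1 and with normexp and quantile normalization (0.47 and 0.3, adjusted p = 0.11 and 0.25). Olfr711 also lost it without Sox2 +DOX replicate 2 (adjusted p = 0.053) and with signals raised to a floor (1.03, adjusted p = 0.23), which is the lowest signal on the array among probes well above background. Receptor genes of a family resemble each other, so a probe may see more than 1 of them, and the 3 signals are not counted as separate evidence. Of the 5 genes lower in both, Ceacam10, an adhesion molecule of the carcinoembryonic antigen family, fell from -0.73 and 0.5 to -4.1 and -3.48 (change -3.68, adjusted p = 0.025) and by 4.38 with Oct4 alone (adjusted p = 0.02). Igkv6-14, an immunoglobulin kappa variable segment made by B cells and plasma cells, fell by 4.85 (adjusted p = 0.0082) and by 3.35 (adjusted p = 0.045). Of 23 tested B cell and plasma cell markers none was called and their median change was 0.21. Ceacam10 lost its call in each fit without 1 array, and Igkv6-14 kept it in all 4.

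**Figure D2:**
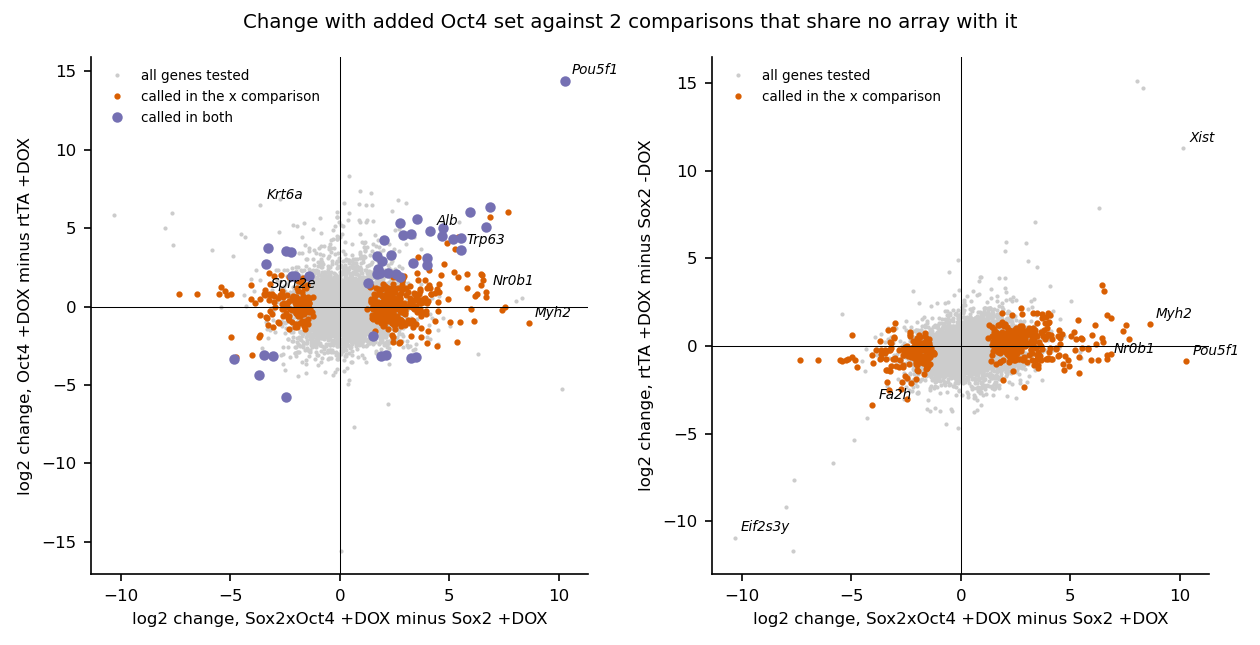
Log2 change between Sox2xOct4 +DOX and Sox2 +DOX (horizontal axes) against the change between Oct4 +DOX and rtTA +DOX (left) and between rtTA +DOX and Sox2 -DOX (right). Each point is 1 gene of 19056, orange points are called in the comparison of the horizontal axis and purple points in both comparisons of the panel. Pou5f1 is far from 0 on both axes at left, whereas Xist and Eif2s3y are far from 0 on both axes at right without being called.

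The response to Oct4 differed between the 2 backgrounds in 270 genes (1.42%), 150 in the higher (0.787%) and 120 in the lower direction (0.63%) with Sox2. This test uses the arrays of the main comparison and of the Oct4 comparison, and its 2 arms cross different slides. Both groups of slide 2 enter it with a plus sign, so an effect of that slide adds up and does not cancel. A difference called here cannot be told apart from slide. The count was 43 without Sox2 +DOX replicate 1, 24 and 58 without rtTA +DOX replicates 1 and 2, 175 without Oct4 +DOX replicate 2 and 555 without Sox2xOct4 +DOX replicate 1, and the genes below were tested on all arrays only. Among genes that rose, it was called for Atoh7, a proneural transcription factor of the retina, at -7.86 and -8.26 in Sox2 +DOX, -2.69 and -1.5 in Sox2xOct4 +DOX and -6.27 and -7.15 in Oct4 +DOX (change with Sox2 on 5.97, standard error 0.45, adjusted p = 0.0016; difference of responses adjusted p = 0.0097). Slc18a2, the vesicular monoamine transporter, moved from -4.8 and -4.98 to 0.54 and -0.24, 32.9-fold (adjusted p = 0.0012), and stood at -4.26 and -4.54 with Oct4 alone (difference of responses adjusted p = 0.0073). Ctnna2, the neural alpha-catenin, moved from -4.61 and -5.95 to 1.46 and 0.89, 88.2-fold (adjusted p = 0.0018), and stood at -2.44 and -1.68 with Oct4 alone (difference of responses adjusted p = 0.022). In all 3 genes both Sox2xOct4 +DOX arrays lay above the other 8. They kept the call in each fit without 1 array.

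Other nerve-related genes did not all share that pattern. Calca, which encodes calcitonin and the neuropeptide CGRP, stood at -7.38 and -5.88 in Sox2 -DOX, -6.35 and -6.11 in rtTA +DOX, -2.9 and -2.86 in Sox2 +DOX, -1.81 and 1.35 in Oct4 +DOX and 3.49 and 6.07 in Sox2xOct4 +DOX. It thus stood above both control groups with either transgene and was highest with both. Its rise over Sox2 +DOX was 7.66 with a standard error of 1.09 (adjusted p = 0.017), 202-fold, and its difference of responses did not pass the test (adjusted p = 0.61). It lost the call without Sox2 +DOX replicate 1 or 2 or Sox2xOct4 +DOX replicate 2 (adjusted p between 0.051 and 0.091). Bdnf, a nerve growth factor, rose by 2.02 (adjusted p = 0.015) from below background to -6.03 and -6.29, with 1 of the 2 arrays well above background, under the -1.55 and -1.72 of Oct4 alone, and lost the call without Sox2 +DOX replicate 1. The rise of Bdnf was at least 1.14-fold. It was 1.24 with the mean of probes (adjusted p = 0.068), 0.15 with normexp and quantile normalization (adjusted p = 0.56) and 0.37 with that floor (adjusted p = 0.46). Tas1r2, a sweet taste receptor subunit, differed because it was below background in Sox2 +DOX alone (-8.39 and -8.29). It stood at -5.29 and -4.39 in Sox2xOct4 +DOX and between -4.62 and -2.85 in the other groups. The rise of Tas1r2 was 3.5 (adjusted p = 0.0033), at least 2.85-fold. It was 0.33 with normexp and quantile normalization (adjusted p = 0.23) and 1.51 with that floor (adjusted p = 0.054). None of 20 tested markers of enteric neurons and glia was called, although 19 of the 20 were above 0 in change, with a median of 1.01 that compares with 0.78 between the rtTA +DOX and Sox2 -DOX slides.

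Of 35 tested genes of motile cilia, on a list written after the values were seen, 7 rose in Sox2xOct4 +DOX and none fell, with a median of 0.7. Over all genes tested 1.76% rose and 0.84% fell. The ileum has no multiciliated cells, and in the airway and oviduct Foxj1 is the transcription factor that switches cilium genes on. Foxj1 was below background in both Sox2 +DOX arrays, at -6.9 and -7.59, and stood at -1.44 and -2.11 in Sox2xOct4 +DOX. That is a rise of 5.47 with a standard error of 0.59 (adjusted p = 0.0049), at least 23.9-fold. With Oct4 alone it was at -8.12 and -6.78, and the responses differed (adjusted p = 0.016). Besides Foxj1 the genes that rose were the axonemal dyneins Dnah5, Dnah8 and Dnah9, with rises of 5.81, 2.15 and 2.42, and Ak7, Ccdc151 and Cfap299, with rises of 3.86, 5.51 and 5.16. Ak7, an adenylate kinase of cilia, moved from -4.31 and -4.25 to -0.74 and -0.11 and Cfap299 from -4.1 and -2.85 to 1.03 and 2.34. Ccdc151, a dynein docking protein, was below background in Sox2 +DOX alone, at -8.53 and -8.53, against -4.36 to 1.02 in the other groups. With normexp and quantile normalization the rises of Ccdc151, Dnah5 and Dnah9 were 1.11, 1.67 and 0.57, none of them called (adjusted p = 0.12, 0.13 and 0.17). Foxj1, Ak7 and Ccdc151 kept the call in each fit without 1 array. The 2 probes of Dnah9 that passed the filter differed in direction, and it was not called with the mean of probes (1.21, adjusted p = 0.14). Dnah5, Dnah8, Dnah9 and Cfap299 lost the call in 2 or 3 of the fits without 1 array, in particular without Sox2 +DOX replicate 1 (adjusted p = 0.097 to 0.19), and Foxj1, the dyneins and Ak7 are named for this list only.

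Genes of striated muscle were uneven between the replicates. Myh2, a fast skeletal myosin heavy chain, had the largest rise after Pou5f1 among called genes. It stood at -8.41 and -8.27 in Sox2 +DOX and at 2.26 and -1.7 in Sox2xOct4 +DOX, and the rise of 8.62 with a standard error of 1.26 (adjusted p = 0.017) was at least 98.9-fold. Myh8, the perinatal myosin, rose by 7.56 (adjusted p = 0.022), Myom2, a protein of the sarcomere's M-band, by 6.67 (adjusted p = 0.0088) and Myh3, the embryonic myosin, by 3.46 (adjusted p = 0.023). All 4 were also well above background on both rtTA +DOX arrays. With normexp and quantile normalization the rise of Myh2 was 3.4 and that of Myh3 0.48, and neither was called (adjusted p = 0.1 and 0.2). Of 20 tested skeletal muscle genes on a list written after the values were seen, these 4 rose, against 1.76% of all genes tested. Acta1 and Ckm, abundant markers of skeletal muscle, did not, at -0.78 and 1.47 and at -5.48 and -1.28 in Sox2xOct4 +DOX (changes 0.22 and 1.39, adjusted p = 0.93 and 0.56). Without Sox2 +DOX replicate 1 none of the 4 was called (adjusted p = 0.056 to 0.13). Myh2 and Myh8 were lost without replicate 2 of that group, Myh8 and Myh3 without Sox2xOct4 +DOX replicate 1, and Myh3 without replicate 2. None of 24 tested smooth muscle genes was called, with a median change of 1.09. Their median level was 1.16 and 2.95 in Sox2xOct4 +DOX, 1.1 and 1.06 in Sox2 +DOX and 2.32 and 3.25 in rtTA +DOX, and Sox2xOct4 +DOX replicate 2, the higher of its pair here, was the lower of its pair for Myh2. The part of smooth muscle in these calls was not tested.

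Several metabolic genes were among the largest rises. Ugt2a3, a glucuronosyltransferase, moved from -4.96 and -3.7 to 1.21 and 3.23, 93.6-fold (change 6.55, standard error 0.74, adjusted p = 0.0062). It was also at -0.51 and 0.91 in rtTA +DOX against -2.63 and -3.27 in Sox2 -DOX, and its slide-matched change was 3.4 (adjusted p = 0.32). Its neighbour in family Ugt2a1 rose by 6.43 with a slide-matched change of 2.92 (adjusted p = 0.46), and the 2 genes may share signal. Rgn, regucalcin, a calcium-binding protein abundant in liver, moved from -3.62 and -2.1 to 2.42 and 5.54 (change 6.84, adjusted p = 0.023) and stood at 3.3 and 6.09 with Oct4 alone. Klk1b24, a kallikrein, rose by 7.38 (adjusted p = 0.033) and Aoah, a lipase that inactivates endotoxin, by 6.49 (adjusted p = 0.022). Klk1b24 was below background in Sox2 +DOX alone. It stood at -2.03 and -2.38 in rtTA +DOX, -2.72 and -2.12 in Oct4 +DOX and -0.48 and -5.69 in Sox2 -DOX. The slide-matched changes of Rgn, Klk1b24 and Aoah were 5.25, 6.51 and 6.29 (adjusted p = 0.32, 0.31 and 0.21). All 5 lost the call without Sox2 +DOX replicate 1, and Rgn, Klk1b24 and Aoah also without Sox2 +DOX replicate 2 or Sox2xOct4 +DOX replicate 2 (adjusted p up to 0.15). Aoah lost it as well without Sox2xOct4 +DOX replicate 1.

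The small proline-rich genes of the Sprr2 family encode cross-linked proteins of the squamous cell envelope and are also made in intestinal epithelium. Sprr2b fell from 6.85 and 6.6 to 3.22 and 3.76 (change -3.23, standard error 0.49, adjusted p = 0.02). Sprr2e fell from 6.69 and 6.38 to 2.83 and 3.38 (change -3.43, adjusted p = 0.017) and Sprr2k from 5.62 and 5.42 to 1.91 and 2.7 (change -3.22, adjusted p = 0.022). In all 3 the Sox2xOct4 +DOX arrays also lay below the 2 arrays of each control group, which ranged from 4.48 to 5.25 for Sprr2b, while Oct4 +DOX stood at 4.9 and 6.38. Sprr2d, Sprr2f and Sprr2h behaved otherwise: they were below background in every group but Oct4 +DOX. There Sprr2h stood at -2.99 and -1.83 (rise over rtTA +DOX 6.06, adjusted p = 0.0012), Sprr2d at -3.8 and -4.43 (4.72, adjusted p = 0.0056) and Sprr2f at -4.84 and -2.29 (5.38, adjusted p = 0.032). The response to Oct4 differed with Sox2 for Sprr2b, Sprr2e, Sprr2k, Sprr2d and Sprr2h (adjusted p = 0.0097 to 0.049) and did not pass for Sprr2f (adjusted p = 0.072). The 3 falls were lost without Sox2 +DOX replicate 1 (adjusted p = 0.1 to 0.12) or replicate 2 (0.055 to 0.069), Sprr2k without either Sox2xOct4 +DOX array and Sprr2b without replicate 2 of that group. The Sprr2 genes were picked after their values were seen.

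The probes of Sprr2b, Sprr2e and Sprr2k are printed because they bear on whether these are 3 measurements. In NCBI36/mm8 they lie at chr3:92402930-92402989, chr3:92438328-92438387 and chr3:92518789-92518848. Capitals mark the run of 20 bases that all 3 hold.
Sprr2b probe: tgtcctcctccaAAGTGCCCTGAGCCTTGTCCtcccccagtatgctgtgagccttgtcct
Sprr2e probe: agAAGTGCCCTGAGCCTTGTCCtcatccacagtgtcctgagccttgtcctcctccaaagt
Sprr2k probe: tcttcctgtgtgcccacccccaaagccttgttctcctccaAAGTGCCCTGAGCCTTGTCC

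With runs of 20 to 28 identical bases between pairs of these probes, 1 RNA could give signal on more than 1 of them, and the 3 falls are not counted as independent. The probes of Sprr2d, Sprr2f and Sprr2h share at most 10 bases with each other and at most 7 with these.

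The promoters of 6 Sprr2 genes hold the octamer ATGCAAAT, the motif that POU factors bind, read on either strand, within 250 bases before to 50 after the start. They are shown for Sprr2b and Sprr2e, which fell with Oct4 added to Sox2, and for Sprr2d and Sprr2h, which rose with Oct4 alone. The windows are from RefSeq on GRCm38.p6, plus strand, at chr3:92316455-92316754 for Sprr2b, chr3:92351893-92352192 for Sprr2e, chr3:92338890-92339189 for Sprr2d and chr3:92385435-92385734 for Sprr2h. Capitals mark the motif, which appears as its reverse complement ATTTGCAT.
Sprr2b promoter: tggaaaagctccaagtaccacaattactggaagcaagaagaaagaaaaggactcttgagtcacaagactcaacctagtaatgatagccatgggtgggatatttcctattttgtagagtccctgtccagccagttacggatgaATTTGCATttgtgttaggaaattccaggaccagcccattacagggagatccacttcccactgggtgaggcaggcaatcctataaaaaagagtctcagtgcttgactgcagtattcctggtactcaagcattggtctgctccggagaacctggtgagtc
Sprr2e promoter: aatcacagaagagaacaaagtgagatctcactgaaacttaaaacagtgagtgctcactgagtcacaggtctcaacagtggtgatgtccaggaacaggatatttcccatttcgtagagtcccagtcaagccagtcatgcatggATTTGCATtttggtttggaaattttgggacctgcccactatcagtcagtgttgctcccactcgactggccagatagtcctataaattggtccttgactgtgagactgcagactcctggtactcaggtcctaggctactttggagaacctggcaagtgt
Sprr2d promoter: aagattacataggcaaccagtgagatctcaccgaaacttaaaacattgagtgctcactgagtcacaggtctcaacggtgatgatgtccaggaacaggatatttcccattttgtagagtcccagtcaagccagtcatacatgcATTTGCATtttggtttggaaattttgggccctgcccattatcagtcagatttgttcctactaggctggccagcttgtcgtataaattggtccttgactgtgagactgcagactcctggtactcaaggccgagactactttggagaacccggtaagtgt
Sprr2h promoter: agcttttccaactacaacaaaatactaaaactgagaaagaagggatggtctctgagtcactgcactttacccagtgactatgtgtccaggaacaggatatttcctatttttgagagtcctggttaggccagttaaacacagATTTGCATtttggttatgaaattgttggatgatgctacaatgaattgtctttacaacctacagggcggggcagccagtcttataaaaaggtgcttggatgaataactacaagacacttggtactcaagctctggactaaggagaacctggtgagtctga

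The motif began at nearly the same place in all 4, counted in bases from the start, at -108 in Sprr2b, Sprr2d and Sprr2e and at -109 in Sprr2h. Compared without gaps and aligned at the motif, Sprr2d and Sprr2e had 88.0% identical bases, and Sprr2b and Sprr2h 41.1%. Sprr2e and Sprr2d thus held nearly the same promoter. With Oct4 alone Sprr2d rose by 4.72 (adjusted p = 0.0056), while Sprr2e changed by 0.82 and was not called (adjusted p = 0.55). With Oct4 added to Sox2, Sprr2e was 1 of the falls, and Sprr2d was below background in both groups and has no fold. The Sprr2e signal may come in part from RNA of related genes, so its fall is not assigned to this promoter. Over the family, 7 of 10 Sprr2 genes in the promoter table held the octamer, against 1.97% of all 27025 genes of the table and 1.77% of the 12178 genes tested that have an entry. The share was 1.8% (4 of 222) among genes higher with Oct4 added to Sox2, 6.45% (6 of 93) among the lower, 3 of the 6 being Sprr2 genes, and 6.32% (6 of 95) among genes higher with Oct4 alone, again 3 of them Sprr2 genes. The heptamer CATTGTT, a SOX motif, was in 2.67% of the genes tested, 3.6% of the higher and 3.23% of the lower, and in 7.37% (7 of 95) of genes higher with Oct4 alone. Of 20 genes higher in the slide-matched change 2 held the heptamer and none the octamer. The joined SOX and octamer element, the heptamer's first 6 letters and the octamer with 1 free base between, was in none of these windows. The octamer and the heptamer were also absent from that of Nr0b1. These matches describe letters in a window and show no binding.

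**Figure D3:**
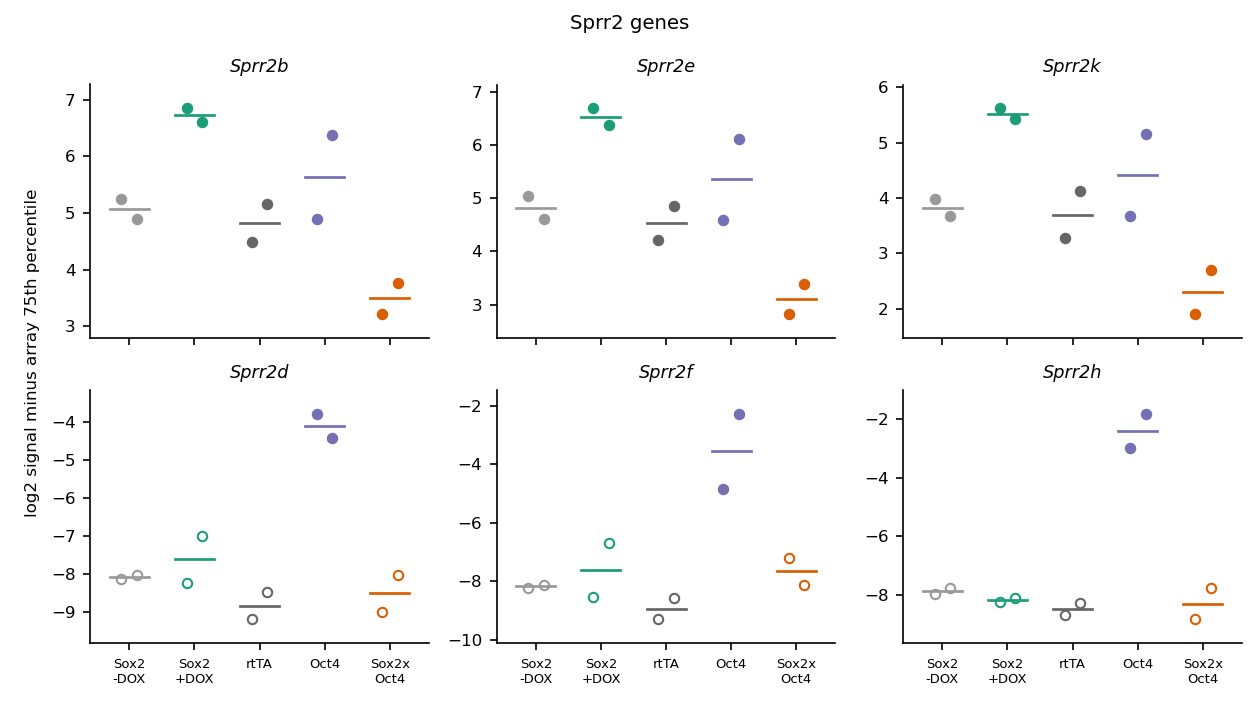
Level (log2 signal minus the array's 75th percentile, vertical axis) of 6 Sprr2 genes in the 5 groups, with 1 point per array, a line at the mean and open points where no array of the group was well above background. Sprr2b, Sprr2e and Sprr2k are lowest in Sox2xOct4 +DOX, and Sprr2d, Sprr2f and Sprr2h are above background in Oct4 +DOX only.

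Several of the called falls were in genes that were high with Sox2 alone. Aldh3a1, an aldehyde dehydrogenase of cornea and stomach, was below background in the 3 groups without active Sox2, at 1.05 and 0.78 in Sox2 +DOX and at -3.91 and -5.3 in Sox2xOct4 +DOX. It fell by 5.52 with a standard error of 0.48 (adjusted p = 0.0021), to a level 45.8-fold lower. Adh7, the retinol-oxidising alcohol dehydrogenase of upper digestive epithelia, fell from 1.41 and 1.26 to -2.23 and -2.87 (change -3.88, adjusted p = 0.015), and was below background in those same groups. Pax9, a transcription factor of pharynx and oesophagus, fell from -1.14 and -3.89 to below background (change -5.0, adjusted p = 0.021). With normexp and quantile normalization the change of Pax9 was -1.49 and not called (adjusted p = 0.12). Dhrs9, a retinol dehydrogenase, fell from -0.51 and -0.79 to -3.95 and -3.76 (change -3.21, adjusted p = 0.0049), still above the controls at -5.36 to -4.49. Reg1, a secreted lectin of the regenerating-islet family, fell from 5.37 and 3.71 to 1.51 and 1.11 (change -3.23, adjusted p = 0.024), again above the controls at -1.25 to -0.36. In these 5 genes the levels with both factors lay between those with Sox2 alone and those of the controls, or below background, and the groups were measured on different slides.

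Dynap, Asic5, Gsta4, Neurod1, Ttr, Itgbl1, Ptprt and Olfr1472 fell as well, with changes of -6.52, -4.99, -2.99, -3.27, -3.71, -4.06, -3.12 and -5.24. Of these, Neurod1 is a transcription factor of enteroendocrine cells and Gsta4 a glutathione transferase that detoxifies lipid aldehydes. Of 31 stomach and foregut genes 19 were tested and 2 fell, Dhrs9 and Upk1b, a uroplakin (change -1.55, adjusted p = 0.043), while none rose, and the median was -1.12. Unlike Dhrs9, Upk1b was not high with Sox2 alone. It stood at -1.48 and -1.56 in Sox2 +DOX, -3.28 and -2.85 in Sox2xOct4 +DOX and between -1.33 and -0.46 in the other groups. Lipf, gastric lipase, went the other way without passing the test, at 3.11 and 0.76 in Sox2 +DOX and 3.56 and 4.68 in Sox2xOct4 +DOX (change 2.18, adjusted p = 0.14). Not every gene high with Sox2 was lower with both. Of the genes in this and the preceding paragraph, Aldh3a1, Olfr1472, Dhrs9 and Ptprt kept the call in each fit without 1 array. Adh7, Asic5, Gsta4 and Upk1b lost it without Sox2 +DOX replicate 1 or replicate 2, Dynap and Reg1 without replicate 1, and Ttr, Itgbl1 and Neurod1 without replicate 2. Without Sox2xOct4 +DOX replicate 2 the calls of Adh7, Pax9, Itgbl1, Ttr, Upk1b, Reg1, Gsta4 and Neurod1 were lost (adjusted p = 0.063 to 0.095), and without its replicate 1 those of Itgbl1, Ttr, Upk1b and Neurod1.

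Of 41 interferon-stimulated genes tested, 9 rose with Oct4 added to Sox2 and none fell, against 1.76% and 0.84% of all genes tested. Interferons are secreted alarm signals that switch on antiviral genes such as the oligoadenylate synthetases and Mx proteins. The median change of the 41 was 1.63 against 0.1 over all genes. Oas2 moved from -4.8 and -4.74 to 0.66 and 0.23, which is 37.2-fold (change 5.22, standard error 0.44, adjusted p = 0.0021). Ifi44 moved from -4.5 and -4.82 to -0.65 and -0.59 (change 4.04, adjusted p = 0.0024). Usp18, which removes the ubiquitin-like protein ISG15 from its targets, moved from -2.6 and -1.76 to 1.05 and 1.91 (change 3.66, adjusted p = 0.005). Isg15 itself moved from -2.39 and -1.72 to 0.43 and 2.36 (change 3.45, adjusted p = 0.024), and Irf9 from -0.37 and -0.15 to 1.05 and 1.7 (change 1.63, adjusted p = 0.031). The other 4 were Mx2, Oas3, Oasl2 and Gbp3, with rises of 2.49 to 3.77.

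In these 9 genes both Sox2 +DOX arrays were below the other 8 arrays. Isg15 stood between 0.67 and 1.74 on the 6 arrays of the other 3 groups, within the span of the Sox2xOct4 +DOX arrays. Oas3, at -5.43 and -4.34 in Sox2 +DOX, was at -1.04 and -1.19 in Sox2xOct4 +DOX and between -1.66 and -0.19 elsewhere. In Oas2, Ifi44, Mx2, Oasl2 and Gbp3 both Sox2xOct4 +DOX arrays were also above the other 8. The list's median level was -0.94 and -0.43 in Sox2 +DOX, 0.66 and 1.7 in Sox2xOct4 +DOX and between 0.16 and 1.47 in the other groups. Ciita, the regulator of MHC class II genes, changed by 0.98 (adjusted p = 0.12). The slide-matched change of the list had a median of 2.35, and Oas2 and Ifi44 were called in it (adjusted p = 0.023 each). Of the lists of immune cells, none of 30 tested T cell markers (median 0.33) and none of 28 macrophage and granulocyte markers (median 0.46) was called. Oas2, Ifi44 and Usp18 kept the call in each fit without 1 array. Without Sox2 +DOX replicate 1 the other 6 lost it (adjusted p = 0.074 to 0.16), without replicate 2 Isg15, Irf9 and Gbp3 did, and without Sox2xOct4 +DOX replicate 2 Irf9, Oas3, Oasl2 and Gbp3 did.

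Of 25 tested genes of cholesterol synthesis, 6 fell and none rose, against 0.84% and 1.76% of all genes tested. The pathway builds cholesterol from acetyl-CoA by way of mevalonate, squalene and lanosterol, and its genes are driven together by SREBP2 when sterols are scarce. Of the 25 changes 23 were below 0, and the median was -1.08. Mvd and Fdps act between mevalonate and squalene, and fell by 1.35 (adjusted p = 0.046) and 1.66 (adjusted p = 0.033). Sqle, squalene epoxidase, fell from 4.01 and 3.95 to 2.66 and 2.35 (change -1.48, adjusted p = 0.036). Cyp51, Nsdhl and Hsd17b7 act after lanosterol. Cyp51 fell from 1.6 and 1.71 to -0.05 and -0.47 (change -1.92, standard error 0.32, adjusted p = 0.024), Nsdhl from 0.97 and 1.07 to -1.67 and -1.62 (change -2.66, adjusted p = 0.018) and Hsd17b7 from 1.55 and 1.65 to -0.71 and -0.12 (change -2.02, adjusted p = 0.039).

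In all 6 called genes the Sox2xOct4 +DOX arrays were the lowest of all 10. Fdps, for instance, stood at 2.82 and 2.38 there and between 4.02 and 4.55 on the other 8. The median level of the 25 genes was 1.68 and 2.38 in Sox2xOct4 +DOX, 2.88 and 3.26 in Sox2 +DOX and 3.3 to 4.18 in the other groups. With Oct4 alone none was called and the median change was -0.06, and the difference between the responses was called for none of them. The slide-matched median was -0.87, with none called. All 6 calls were lost when Sox2 +DOX replicate 1 (adjusted p = 0.094 to 0.2), its replicate 2 (0.063 to 0.12) or Sox2xOct4 +DOX replicate 2 (0.065 to 0.15) was left out, and Hsd17b7 also without replicate 1 of that group.

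**Figure D4:**
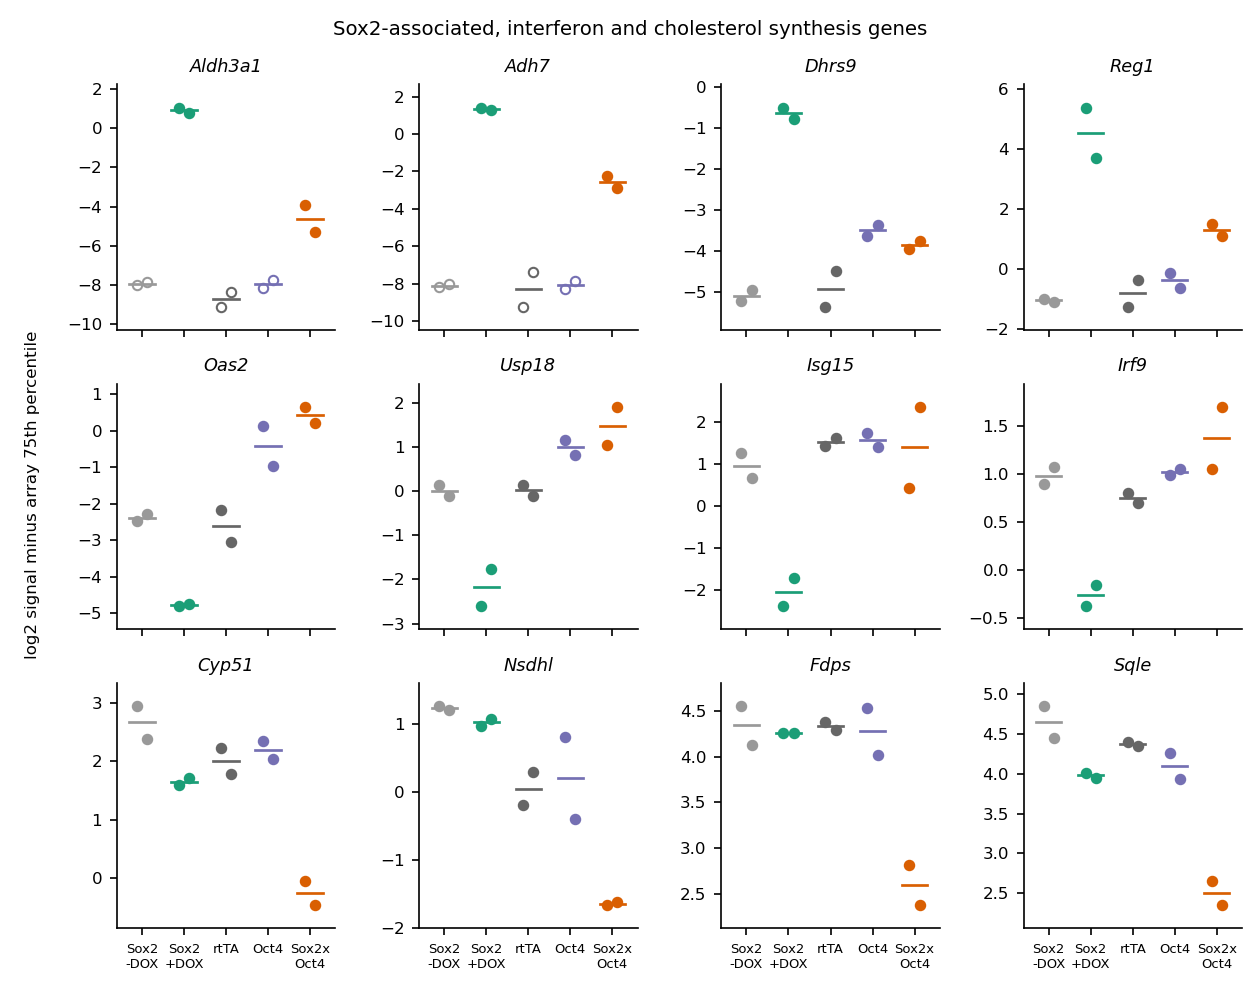
Level (log2 signal minus the array's 75th percentile, vertical axis) in the 5 groups of 4 genes high with Sox2 alone (top row), 4 interferon-stimulated genes (middle row) and 4 genes of cholesterol synthesis (bottom row), drawn as 1 point per array with a line at the mean and open points where no array of the group was well above background. Aldh3a1 and Adh7 stand between the Sox2 +DOX and the control level in Sox2xOct4 +DOX, Isg15 is low in Sox2 +DOX only, and the 4 cholesterol genes are lowest in Sox2xOct4 +DOX.

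Most brush border and digestion genes had a higher mean in Sox2xOct4 +DOX than in Sox2 +DOX, but almost none passed the test. Of 36 tested brush border and digestion genes, 35 changes were above 0, with a median of 1.15, and 1 was called. This was Slc5a12, a lactate transporter, which moved from below background (-7.22 and -6.14) to -3.41 and -1.11, under the 0.46 and 0.96 of rtTA +DOX (change 4.42, adjusted p = 0.021). The median level of the list was -0.22 and 1.95 in Sox2 +DOX, 1.93 and 2.87 in Sox2xOct4 +DOX and 4.38 to 4.95 in the 3 groups without active Sox2. In this median Sox2 +DOX replicate 2 and Sox2xOct4 +DOX replicate 1 were thus level, and Sox2 +DOX replicate 1 was the lowest array. The genes share their arrays, so the count of 35 is not separate evidence of a group difference. Pdzk1, a scaffold of the brush border, stood at -1.66 and 1.22, at 2.67 and 3.75 and at 4.92 to 6.02 in the same order (change 3.43, adjusted p = 0.071). Lct, lactase, had the largest change of the list, 6.33, which did not pass (adjusted p = 0.078) and was 7.85 between the rtTA +DOX and Sox2 -DOX groups of the same 2 slides. The number of brush border genes called ran from 0 without Sox2 +DOX replicate 1 to 6 without its replicate 2, and was 3 without Sox2xOct4 +DOX replicate 1.

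Creb3l3, a transcription factor of lipid metabolism, rose from 1.89 and 1.93 to 4.15 and 4.07, the level of Sox2 -DOX at 4.0 and 3.65 (change 2.2, adjusted p = 0.023). Pparg, the fat-sensing nuclear receptor, fell from 1.4 and 1.11 to -0.44 and -0.27 (change -1.61, adjusted p = 0.033), lower than on any other array. They were the 2 of 28 intestinal transcription factors called. Of 27 lipid absorption genes Cd36 alone was called. Fabp1, the liver-type fatty acid binding protein, stood at -1.44 and -1.44 and at 2.39 and 0.73 (change 3.01, adjusted p = 0.06). In xenobiotic metabolism 1 of 36 tested genes rose, Sult1d1, a sulfotransferase (2.5, adjusted p = 0.048), and 5 fell, Aldh3a1, Adh7, Gsta4, Gsta1 and Ces1f. Gsta1, a glutathione transferase, fell by 2.14 (adjusted p = 0.049) and Ces1f, a carboxylesterase, by 2.6 (adjusted p = 0.0069). Slc5a12, Creb3l3, Pparg, Sult1d1, Gsta1 and Ces1f all lost the call without Sox2 +DOX replicate 1 (adjusted p = 0.052 to 0.19), and Creb3l3, Pparg and Gsta1 in each of the 4 fits that left out 1 array, while Sult1d1 lost it without either Sox2xOct4 +DOX array.

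Few genes of the secretory cell lists were called, and those fell, while the lists as a whole did not share 1 direction. Of 22 tested goblet cell and mucus genes 3 fell, against 0.84% of all genes tested, with a median of -0.55. Clca3b, a chloride channel regulator, fell from 2.03 and 2.26 to -1.27 and -1.74 (change -3.65, adjusted p = 0.014), Gcnt3, a mucin glycosyltransferase, by 1.92 (adjusted p = 0.045) and St6galnac1, a sialyltransferase of mucins, by 2.48 (adjusted p = 0.029). The fall of St6galnac1 was at least 1.34-fold, and was -0.48 with the floor (adjusted p = 0.56) and -0.22 with normexp and quantile normalization (adjusted p = 0.48). St6galnac1 was well above background on 1 of the 2 Sox2 +DOX arrays and on neither Sox2xOct4 +DOX nor Oct4 +DOX array, against -2.44 to -0.25 in the other 2 groups. Muc2, the main intestinal mucin, changed by 0.36 (adjusted p = 0.7). Fa2h, a fatty acid hydroxylase, fell from 0.51 and 0.33 to -3.35 and -3.91 (change -4.05, adjusted p = 0.022), but its slide-matched change was -0.69, since it was also lower by 3.36 between rtTA +DOX and Sox2 -DOX. Of the Paneth cell list 1 of 26 tested genes was called, Reg1, with 13 changes above 0, 13 below and a median of -0.02. Of the enteroendocrine and tuft cell list 1 of 32 was called, Neurod1, while 24 of the 32 changes were above 0, with a median of 0.42. Gcnt3 lost its call in each of the 4 fits that left out 1 array, Clca3b and Fa2h without either Sox2 +DOX array or Sox2xOct4 +DOX replicate 2, and St6galnac1 without either Sox2 +DOX array or Sox2xOct4 +DOX replicate 1.

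None of 36 cell cycle and DNA replication genes was called, and the median was -0.36. Of 29 tested stem cell and Wnt target genes 2 rose, Sp5, a transcription factor induced by Wnt (from -1.9 and -2.11 to -0.21 and -0.43, change 1.68, adjusted p = 0.031), and Wif1, a secreted Wnt inhibitor (2.65, adjusted p = 0.022). Lgr5, the marker of crypt base stem cells, stood at 1.6 and -0.14 and at 1.43 and 1.55 (adjusted p = 0.47). Lox, which cross-links collagen, and Fbln2, a matrix protein, rose by 3.39 (adjusted p = 0.033) and 2.42 (adjusted p = 0.047), the 2 of 29 fibroblast and matrix genes called. Egr2 rose by 2.29 (adjusted p = 0.022) as 1 of 29 immediate early genes. With 1.76% of all genes tested called higher, these 1 or 2 calls per list are results about the single genes only. Sp5, Wif1, Fbln2 and Egr2 lost the call without either Sox2 +DOX array, and Lox without replicate 1 of it. Sp5, Wif1, Lox and Fbln2 lost it without Sox2xOct4 +DOX replicate 2, and Sp5 and Lox without its replicate 1. None of 18 endothelial, 18 adipocyte, 11 exocrine pancreas, 4 erythroid, 31 Hedgehog, BMP and Notch, 21 Hox, 19 clock and 10 ileal bile acid genes was called.

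**Figure D5:**
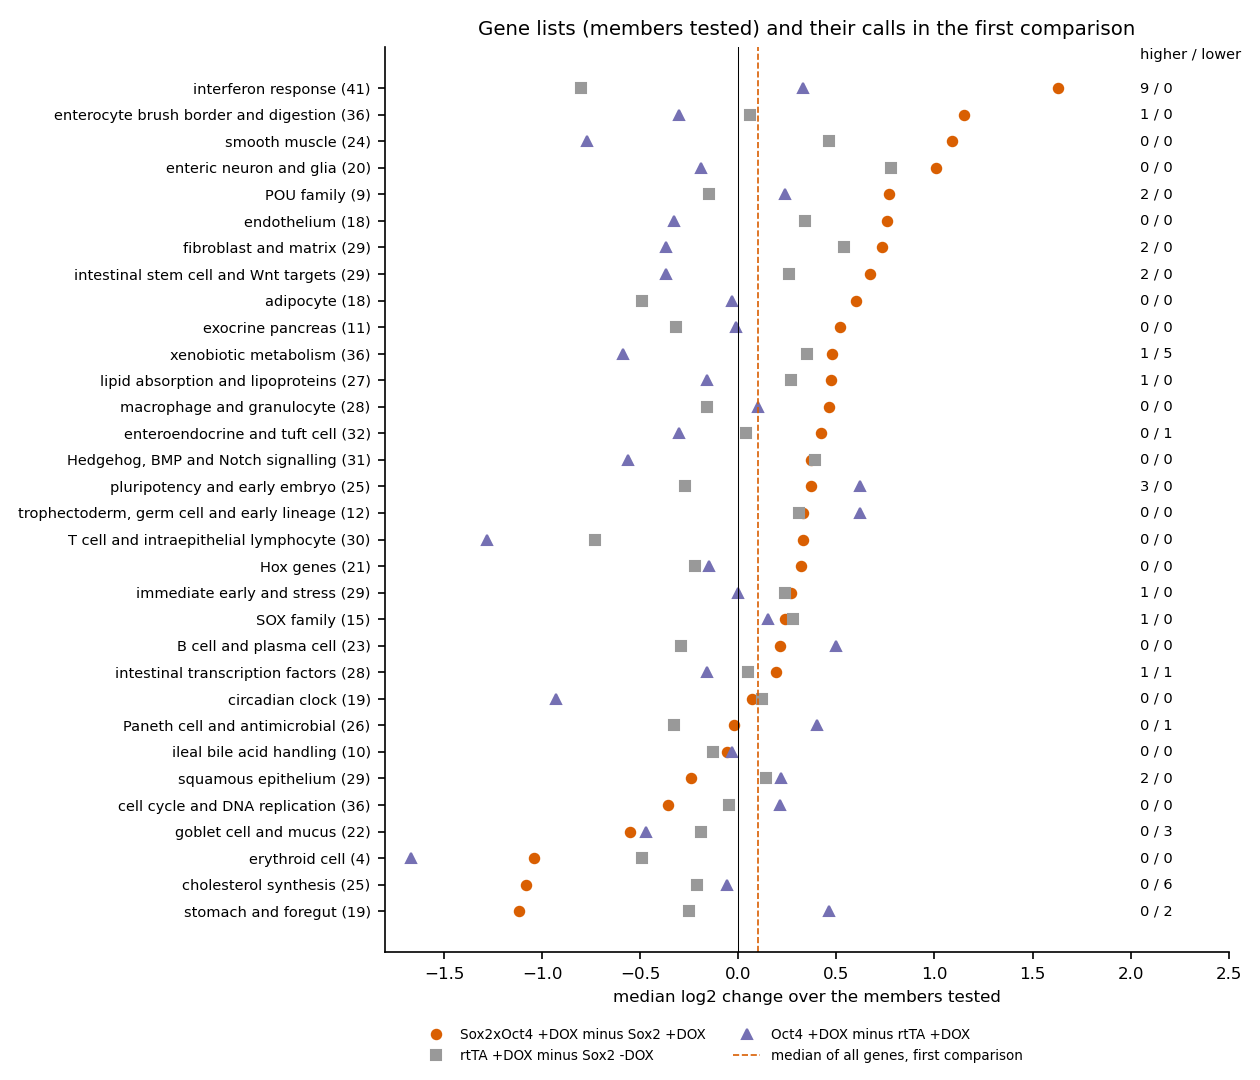
Median log2 change (horizontal axis) of the members tested in 32 gene lists, whose number of tested members is in brackets, for 3 comparisons (symbols). The numbers at right count members called higher and lower in Sox2xOct4 +DOX against Sox2 +DOX, and the dashed line is the median of all genes, 0.1. The interferon list lies farthest to the right at 1.63 with 9 genes higher, and cholesterol synthesis (-1.08) and stomach and foregut (-1.12) lie farthest to the left of the lists drawn. The sex-linked list is left out of the plot.

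After the slide-matched subtraction 32 genes were called (0.168% of those tested), 28 higher (0.147%) and 4 lower (0.021%). With quantile normalization 28 of 43 were higher, and with normexp added 4 of 7. Between rtTA +DOX and Sox2 -DOX, on the same slides, none was called in limma (0.0%), while 1069 genes (5.61%) had an unadjusted p under 0.05, and the fits with a variance trend or a replicate block called 2 each. The main comparison and that one share no array, and their changes correlated across genes with r = 0.29, over points that share the slides. The higher genes included Pou5f1 (11.18, adjusted p = 0.0045), Nr0b1 (7.44), Olfr713 (7.17, adjusted p = 0.0025), Ctnna2 (6.01, adjusted p = 0.027), Slc7a3 (5.95, adjusted p = 0.017), Trp63 (5.64), Oas2 (5.45), Atoh7 (5.33, adjusted p = 0.027) and Ccdc151 (5.1, adjusted p = 0.049). Slc18a2 (4.45, adjusted p = 0.023), Boll (4.42, adjusted p = 0.03) and Ak7 (3.37, adjusted p = 0.049) were also among them. The lower genes included Ptprt, a receptor tyrosine phosphatase (-4.11, adjusted p = 0.028), and Olfr1472 (-4.47, adjusted p = 0.049). Aldh3a1 (-4.74, adjusted p = 0.052) and Dhrs9 (-3.37, adjusted p = 0.053) did not pass. Leaving out Sox2 +DOX replicates 1 and 2 in turn gave counts of 10 and 5, Sox2 -DOX replicates 1 and 2 gave 6 and 7, rtTA +DOX replicates 1 and 2 gave 6 and 9, and the count was 52 without Sox2xOct4 +DOX replicate 1.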

How the data were processed

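RNA from mouse ileum was hybridised to 10 one-colour Agilent arrays (Cy3, total RNA extracted with Trizol, per the labels). Each array's scanner file, as deposited, lists a background-subtracted intensity per spot from Feature Extraction, not scaled to the other arrays, per the file headers. Its version was 9.5.3.1 (slide 1), 10.7.1.1 (slide 2) or 10.7.3.1 (slide 3), while the submitters' processing notes name Agilent Feature Extraction 9.1. A deposited table of normalized values for the TetON-Sox2 arrays was not used here.

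Of 41174 probes, 31 flagged as outliers on some array were dropped. The log2 of the processed signal minus the array's 75th percentile (544 to 1613) was taken. The filter kept 28761 probes, those with both arrays of some group well above background, and the brightest on average stood for its gene. Names came from RefSeq for 80.2% of probes and from the files for 8143. Between 63.5 and 70.5% of probes were well above background, none was saturated, and the number of arrays limits the precision (median standard error 0.393). Groups were taken from genotype and treatment labels.

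A model with 1 mean per group was fitted in limma 3.58.1 (R 4.3.3) over all 10 arrays (5 residual degrees of freedom). It gave 5 comparisons. Alternatives were another background correction and normalization (normexp with offset 50, and quantile), no filter, the mean of probes, a variance trend, the replicate number as a block, fits to 4 or 8 arrays, a floor, and leaving out each array, which takes the spread of the lone array from the other groups. The scripts were tested on simulated data. Replicates correlated with r of 0.959 to 0.984. Replicate numbers were not taken as a pairing (r of -0.128 to 0.275 between deviations of same-numbered arrays).

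The members, the 33 gene lists and the tests were chosen with earlier results of these data known, and 3 more lists (cilium, skeletal muscle, small proline-rich genes) were written after the values were seen. Named genes were Pou5f1, Sox2, Sox21, Cdx2, Nanog, Xist and Eif2s3y, the 15 largest rises and 15 largest falls among called genes without overlap, up to 12 in each direction shared with Oct4 alone or with the slide-matched change, and up to 4 per list with the smallest p. Fewer were named. Boll, Slc18a2, Foxj1, the dyneins, Ak7, Myh3, the Sprr2 genes, Olfr714, Cd36, Slc19a3, Bdnf, Lrrn3, Tas1r2 and further list members called were named after their values were seen. The plots were drawn in Python 3.11.15. Some items are not reported here.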

Additional observations from a re-analysis of the deposited data

Results flagged for a closer look

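These genes stand out because the log2 response to Oct4 differed between animals with and without active Sox2, by limma's test of the difference itself (adjusted p of 0.0073 to 0.049 over all genes tested). The values are the response with Sox2 minus the response without it. They cross slides 1 and 2 in 1 arm and slides 2 and 3 in the other, so a slide effect does not cancel and cannot be told apart from Sox2. The response was more positive with Sox2 for Myh2 (9.66), Slc5a12 (6.94), Foxj1 (6.47), Atoh7 (6.09), Slc18a2 (6.05), Nr0b1 (5.72), Ctnna2 (5.07), Slc7a3 (4.61), Myh3 (4.57), Dnah9 (4.36), Tas1r2 (3.84), Ifi44 (3.68), Boll (3.62), Ak7 (3.36), St6galnac1 (3.31) and Ciita (2.5). It was more negative with Sox2 for Krt6a (-10.11), Pcyt1b (-7.05), Aldh3a1 (-6.29), Olfr1472 (-6.25), Sprr2h (-6.18), Pax9 (-5.81), Sprr2d (-5.61), Fa2h (-5.44), Dhrs9 (-4.63), Sprr2e (-4.25), Adh7 (-4.14), Sprr2b (-4.05), Sprr2k (-3.93), Gcnt3 (-3.57), Ptprt (-2.68), Slc19a3 (-2.54) and Bdnf (-2.2). Slc19a3 rose in both settings and less with Sox2. Many of these genes, such as Nr0b1, Foxj1, Aldh3a1, Krt6a, Sprr2h, St6galnac1 and Bdnf, were below background in 1 or more of the 4 groups, so that their values carry a background level. Pcyt1b is a gene of phosphatidylcholine synthesis that fell with Oct4 added to Sox2 (-3.29, adjusted p = 0.022) and rose with Oct4 alone (3.76, adjusted p = 0.021). Its fall was not called without Sox2 +DOX replicate 1 (adjusted p = 0.097) or Sox2xOct4 +DOX replicate 2 (adjusted p = 0.091), with the mean of probes (adjusted p = 0.053), with the floor (-2.13, adjusted p = 0.077) or with normexp and quantile normalization (-0.61, adjusted p = 0.14).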

How the results depend on the processing

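With 2 arrays a group, the calls depend on single arrays, and the cause was not tested. Added Oct4 gave 495 genes over all arrays, 81 to 679 with 1 array left out, and 52 when its 4 arrays were fitted alone, where fewer samples estimate the spread. The slide-matched change gave 32, with 5 to 52 when 1 array was left out, 7 with normexp and quantile normalization and 16 with a variance trend. Oct4 alone gave 192, with 35 to 191 when 1 array was left out and 111 with normexp and quantile normalization. The difference of responses gave 270, with 24 to 555, 173 with normexp and quantile normalization and 148 with no filter on dim probes. The rtTA +DOX against Sox2 -DOX comparison gave 0 in each fit with 1 array left out, and 2 with a variance trend.

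With the replicate number as a block, added Oct4 gave 588 genes and rtTA +DOX against Sox2 -DOX gave 2. The block ended the calls of 4 genes of the text. The labels do not say that a number marks a shared animal or day, and with r = 0.197 between the 2 groups compared, over 2 numbers, no pairing was assumed.

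Of 91 genes of the text called with added Oct4, 24 were called in each of the 4 fits without 1 array and 16 under all 13 alternatives. Normexp and quantile normalization ended 24 of the 91 calls. Among them were Myh2, Myh3, Klk1b24, BC019122, Alb, Ccdc151, Dnah5, Dnah9, Olfr711, Olfr714, Bdnf and Tas1r2. The others were Pax9, Itgbl1, Ttr, Neurod1, St6galnac1, Oas3, Dsg3, Slc5a12, Wif1, Lox, Fbln2 and Pcyt1b. The floor ended the calls of Myh3, Itgbl1, Alb, Olfr711, Bdnf, St6galnac1, Tas1r2 and Pcyt1b. The signs that turned all belong to genes without a call. With 1 array left out their changes ran from -1.22 to 0.24 for Cdx2, -0.28 to 2.11 for Spp1, -0.97 to 0.87 for Sprr2f, -0.66 to 0.43 for Sprr2h, -3.56 to 0.35 for Slc10a2, -0.19 to 0.32 for Vil1, -0.29 to 1.02 for Muc2, -0.11 to 1.63 for Lgr5, -0.9 to 1.35 for Acta1 and -0.71 to 3.49 for Ckm. With the mean of probes Vil1 turned as well (-0.01). Probes not well above background give only bounds.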
